A study of Mus musculus with 7 samples.

Results

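The neighbouring mouse hairpins Mir132 and Mir212 give 4 mature miRNAs: mmu-miR-132-3p, mmu-miR-132-5p, mmu-miR-212-3p and mmu-miR-212-5p, written without the species prefix from here on. They were taken by name, as 4 of the 1908 rows in each of 2 tables of mouse small RNA levels, over all 7 libraries. The libraries came from fluorescence-sorted cells of embryonic mouse spinal cord. At E10.5 (E for embryonic day), Hb9::gfp embryos gave 2 libraries of GFP-positive cells, labelled spinal motoneurons, and 2 of GFP-negative cells, labelled non-motoneuron spinal cells. At E12.5, 1 library each came from GFP-positive motoneurons of Hb9::gfp embryos, tdTomato-positive V2a interneurons of Chx10::cre;Rosa26::LSL::tdTomato embryos and tdTomato-positive V3 interneurons of Sim1::cre;Rosa26::LSL::tdTomato embryos. The Hb9 promoter marks motoneurons directly, whereas the Cre lines mark every cell that has expressed Cre and its descendants, so at E12.5 the reporter line and the cell type cannot be told apart. V2a and V3 are excitatory interneuron classes of the ventral cord.

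Mir132 and Mir212 are processed from a common primary transcript. Its transcription responds to CREB, the cAMP-responsive factor that neuronal activity and neurotrophins switch on, and the cluster is known for its part in dendrite growth and synaptic plasticity. Each hairpin yields a strand from its 5′ arm (5p) and one from its 3′ arm (3p). The 3p strands are the ones usually described as the active guides. They share a seed, the bases 2 to 8 that pair with target mRNAs.

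The mature sequences are given below from RefSeq (GRCm38.p6), 5′ to 3′, with the seed in capitals, because the seeds define which strands can share targets.
miR-132-3p: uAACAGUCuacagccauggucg
miR-212-3p: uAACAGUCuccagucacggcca
miR-132-5p: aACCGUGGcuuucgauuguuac
miR-212-5p: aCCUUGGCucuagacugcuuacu
The 3p strands had the same 9 leading bases and matched at 17 of 22 positions. No mature miRNA in the table of 1679 names carried the seed AACAGUC other than these 2. The 5p strands matched at 14 of 21 positions once miR-132-5p was read from its second base. Their seeds differed from each other, and each belonged to 1 name.

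Both hairpins lie on the plus strand of chromosome 11 (GRCm38.p6), Mir212 at chr11:75173388-75173478 and Mir132 at chr11:75173682-75173747, with 203 nt between them. In GENCODE M21 they fall in an intron of the noncoding gene 1700016P03Rik, between exon 1 (75172560 to 75172597) and exon 2 (75173978 to 75174161). The nearest RefSeq genes that do not overlap the pair are Hic1, ending at 75170255, and Ovca2, starting at 75175943. The hairpins are printed with their mature strands in capitals, the 5p strand first, because the results below turn on how reads divide between the arms.
Mir212: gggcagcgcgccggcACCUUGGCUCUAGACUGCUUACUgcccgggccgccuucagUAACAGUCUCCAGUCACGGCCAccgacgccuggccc
Mir132: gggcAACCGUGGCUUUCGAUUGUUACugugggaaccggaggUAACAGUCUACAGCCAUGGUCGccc

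Levels at E10.5 are in reads per 1000000 (RPM) and those at E12.5 in transcripts per 1000000 (TPM), which takes account of length. The tables were scaled separately, so levels are set side by side across stages without a test. The E10.5 libraries held 493223 to 802736 reads and the E12.5 libraries 3603360 to 4605149. A floor of 3 reads, the most that a count of 0 allows, was 3.74 to 6.08 RPM in the early set and 0.67 to 0.84 TPM in the late set. The labels were checked with miR-218-5p, the motoneuron miRNA. It stood at 177885 and 200305 RPM in the E10.5 motoneuron libraries against 6623 and 7315 in GFP-negative cells, and at 104198 TPM in E12.5 motoneurons against 7558 in V2a and 7282 in V3. The labels do not tie the replicates to different embryos or sorts. The p-values therefore reflect only how far these libraries vary, which may be technical. In sorted populations, fewer cells that express a miRNA and less of it per cell cannot be told apart.

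The first comparison asked whether the cluster differed between motoneurons and GFP-negative cells at E10.5. It was scarce in both. The 4 strands together held 20 and 11 reads in the GFP-negative libraries and 21 and 17 in the motoneuron libraries. Their summed level was 25.7 and 20.4 RPM in GFP-negative cells and 26.2 and 34.5 RPM in motoneurons. None of the strands reached 15.2 RPM (10 reads at the median depth) in 2 libraries, the minimum for testing, so none was among the 492 miRNAs tested.

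miR-132-3p, the strand best known as the guide, stood at 16.7 and 3.71 RPM in GFP-negative cells and at 12.46 and 8.11 RPM in motoneurons. The motoneuron values lay between the GFP-negative ones, so the groups overlapped. Motoneurons averaged 10.3 ± 3.08 RPM and GFP-negative cells 10.2 ± 9.20 RPM (SD, n = 2 each). Pooled over libraries, 14 motoneuron and 15 GFP-negative reads gave a ratio of 0.95, with an exact 95% interval of 0.42 to 2.11. This interval and all others here cover counting error only. They hold no spread between libraries, and the GFP-negative libraries held 13 and 2 of these reads. Reads copied by PCR do not count separate molecules, so the intervals may be too narrow even for counting error.

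Its partner miR-132-5p was the only strand of the 4 whose E10.5 groups did not overlap. It stood at 5.14 and 0 RPM in GFP-negative cells and at 6.23 and 10.1 RPM in motoneurons. Of the 1270 rows above 0 in any library, 16.1% lay higher in both motoneuron libraries in this way. The pooled reads were 10 and 4, a ratio of 2.54 with an interval of 0.73 to 11.1 that includes equality. The GFP-negative value rested on 4 reads in a single library.

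miR-212-5p stood at 2.57 and 14.9 RPM in GFP-negative cells and at 6.23 and 14.2 RPM in motoneurons, again with overlap. The pooled ratio was 1.22, with an interval of 0.48 to 3.15. miR-212-3p, which shares the seed of miR-132-3p, had exactly 1 read in each of the 4 libraries, or 1.25 to 2.03 RPM, below the floor throughout. The seed family, miR-132-3p plus miR-212-3p, came to 16 reads in motoneurons and 17 in GFP-negative cells.

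**Figure D1:**
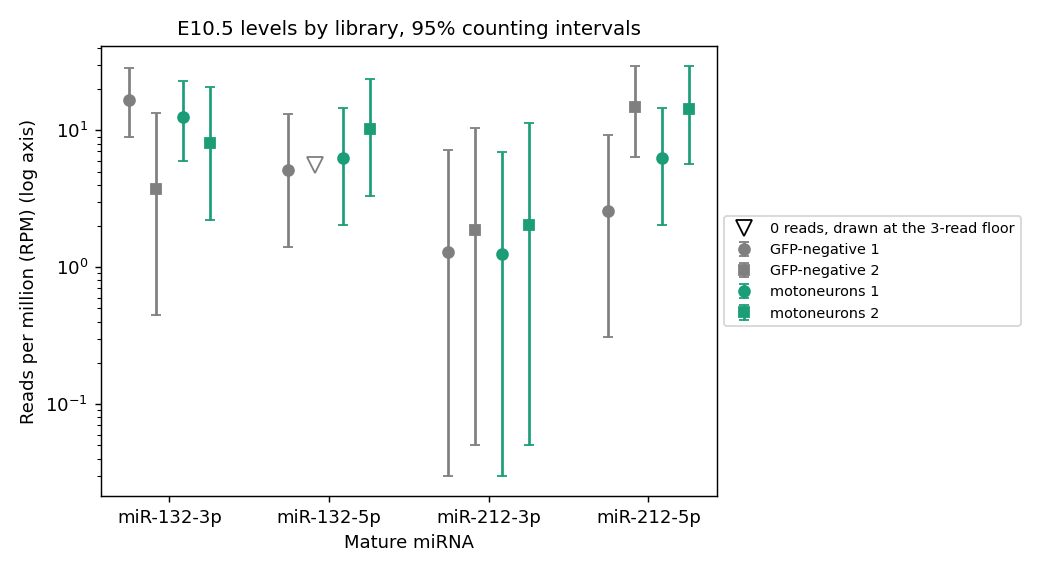
Levels of the 4 strands at E10.5 in RPM on a log axis, 1 point a library, with exact 95% Poisson counting intervals. The open triangle marks the GFP-negative library with 0 reads of miR-132-5p, drawn at the floor of 3 reads. The intervals of the groups overlap for every strand, and miR-212-3p sits at 1 read in each library.

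When every row above 0 in any library was entered, the strands could be tested, and 12.6% of the 1270 rows passed (limma adjusted p under 0.05). No strand of the cluster did. The log2 difference, motoneurons minus GFP-negative cells on log2(RPM + 1), was 1.86 for miR-132-5p (SE 1.02, limma adjusted p = 0.333), 0.48 for miR-212-5p (SE 0.88, limma adjusted p = 0.761), 0.28 for miR-132-3p (SE 0.78, limma adjusted p = 0.862) and 0.03 for miR-212-3p (SE 0.77, limma adjusted p = 0.994). No difference was detected at this depth, and the pooled intervals above leave room for changes of 2-fold or more in either direction for miR-132-3p and miR-212-5p. The sign for miR-132-3p rested on single libraries: the difference was 1.23 without GFP-negative replicate 1 and -0.68 without GFP-negative replicate 2. That for miR-212-5p was -0.60 and 1.55 under the same omissions, and -0.06 without motoneuron replicate 2.

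The second comparison set motoneurons beside 2 interneuron classes at E12.5, where the libraries were several times deeper and the cluster was counted on 287 reads in motoneurons, 144 in V2a and 65 in V3. Each population had 1 library, so there is no replicate check and no test. Motoneurons had the highest level of each of the 3 strands counted on more than 1 read, and the interneurons differed from each other in opposite ways: miR-212-5p was low in V3 and miR-132-3p was low in V2a. The summed level of the cluster was 15.6 TPM in V3, 31.1 in V2a and 78.6 in motoneurons.

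miR-212-5p was the most abundant strand in motoneurons, at 46.8 TPM (174 reads). It stood at 20.6 TPM (97 reads) in V2a and at 1.88 TPM in V3. The V3 value corresponded to 8.18 reads, which is not whole. Motoneurons were 24.9-fold above V3 (interval 12.4 to 58.6), V2a was 10.97-fold above V3 (interval 5.35 to 26.1), and motoneurons were 2.27-fold above V2a (interval 1.76 to 2.94). With all miRNAs in the totals, the 3 populations stood apart by more than counting error. When totals were taken without the 5 most abundant miRNAs, which include miR-218-5p, the log2 ratio on the TPM + 1 scale fell from 1.15 to 0.52 for motoneurons over V2a and from 4.05 to 3.34 over V3. Its log2 ratio of motoneurons over V3 with all miRNAs in the totals, 4.05, was the second highest of the 1014 miRNAs that reached 2.34 TPM (10 reads at the median depth) in any library. Of those, 8.68% were at least 4-fold higher in motoneurons than in V3 on that scale. For V2a over V3 it ranked 21st with 2.91, where 10.8% were at least 4-fold higher.

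miR-132-3p stood at 12.4 TPM (44 reads) in motoneurons, 3.13 TPM (13 reads) in V3 and 0.47 TPM in V2a. The V2a value, 2.13 read equivalents, was also not whole, and it lay below the floor of 0.67 TPM. Motoneurons were 26.2-fold above V2a, with a wide interval of 6.83 to 223 because of the 2 reads there. They were 3.96-fold above V3 (interval 2.10 to 8.02), and V2a stood at 0.15 of V3 (interval 0.02 to 0.67). The log2 ratio of motoneurons over V2a, 3.18 on the TPM + 1 scale, was the seventh highest of 1014, and 4.14% of miRNAs were at least 4-fold higher in that comparison. Against V3 the log2 ratio of 1.70 did not reach 4-fold, and it was 0.98 with totals taken without the 5 most abundant miRNAs.

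miR-132-5p varied least among the 3 strands counted on more than 1 read. The lowest values of the others rested on 2 reads (miR-132-3p in V2a) and 8 reads (miR-212-5p in V3). miR-132-5p stood at 19.1 TPM (68 reads) in motoneurons, 10.01 TPM (45 reads) in V2a and 10.6 TPM (44 reads) in V3. Motoneurons were 1.91-fold above V2a (interval 1.29 to 2.85) and 1.81-fold above V3 (interval 1.22 to 2.71). V2a and V3 did not differ beyond counting error, at a ratio of 0.95 with an interval of 0.61 to 1.47. With totals taken without the 5 most abundant miRNAs, the log2 ratio of motoneurons over V3 fell from 0.80 to 0.02, and over V2a from 0.87 to 0.27.

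miR-212-3p had 1 read in motoneurons (0.28 TPM) and 0 in V2a and V3, all at or under the floor. Of the 2 strands with the seed AACAGUC, printed above, miR-132-3p therefore supplied nearly all reads at E12.5: 44 of 45 in motoneurons, 2 of 2 in V2a and 13 of 13 in V3.

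**Figure D2:**
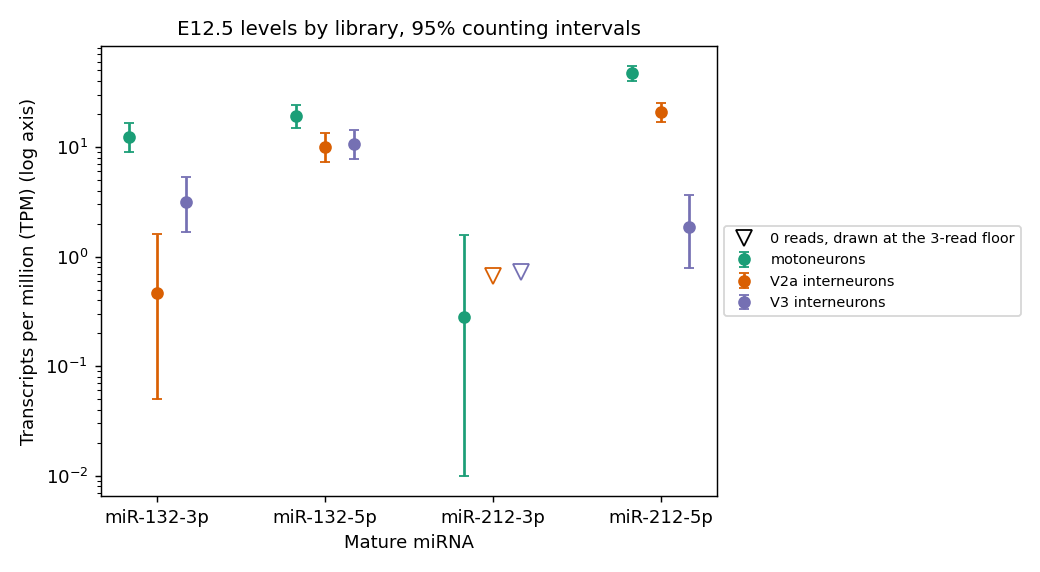
Levels of the 4 strands at E12.5 in TPM on a log axis, 1 library a population, with exact 95% Poisson counting intervals. Open triangles mark libraries with 0 reads, drawn at the floor of 3 reads. miR-212-5p is lowest in V3 at 1.88 TPM, miR-132-3p is lowest in V2a at 0.47 TPM, and miR-132-5p is near 10 TPM in both interneuron libraries.

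**Figure D3:**
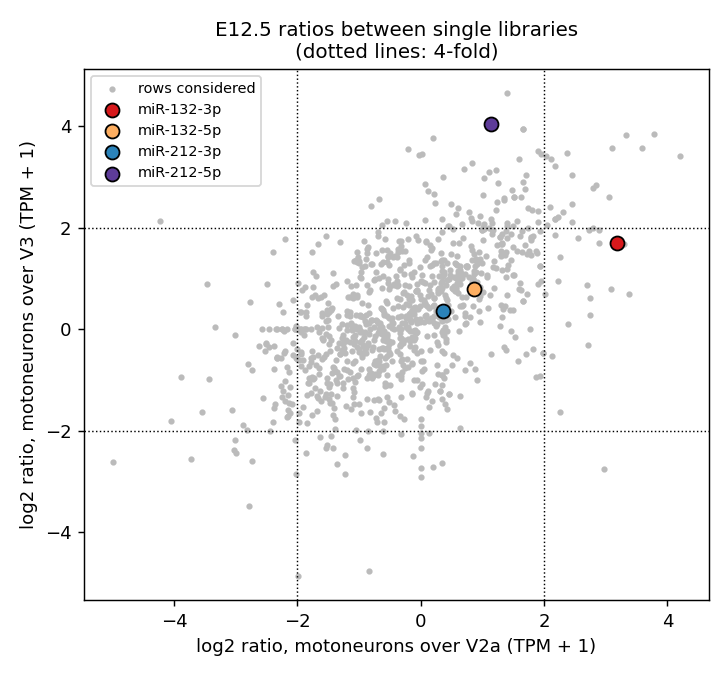
Log2 ratios on the TPM + 1 scale of motoneurons over V2a (x axis) and over V3 (y axis) for the 1014 miRNAs considered, in grey, with the 4 strands in colour. miR-212-5p lies past 4-fold (dotted lines) on the V3 axis alone, and miR-132-3p on the V2a axis alone.

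Levels of other cell types' miRNAs were read beside these values. At E12.5 the 10 mesenchymal and smooth muscle miRNAs summed, in the order motoneurons, V2a and V3, to 199, 249 and 310 TPM, with 2, 1 and 1 of them at 0. The 4 striated muscle miRNAs summed to 126, 221 and 63.0 TPM, and the 2 endothelial ones to 177, 405 and 174 TPM. The 3 sensory neuron miRNAs came to 108, 181 and 193 TPM. The blood markers found in the table, miR-451a, miR-144-3p and miR-223-3p, summed to 2.6, 1.1 and 2.4 TPM, with miR-451a at 0 in motoneurons and V2a. Striated muscle and endothelial sums were highest in V2a, where miR-132-3p was lowest, and their part in the result was not tested. At E10.5 the mesenchymal sum was 81413 and 94290 RPM in GFP-negative cells against 1571 and 424 in motoneurons. The sensory neuron sum was 9171 and 9535 RPM against 1971 and 2325.5. Striated muscle came to 4192 and 3796 RPM against 355 and 130, and endothelial to 977 and 676 against 508 and 295. The neuron list went the other way, at 9949 and 12068 RPM in GFP-negative cells against 15814 and 15248 in motoneurons. The part of these other cell types in the E10.5 levels of the cluster was not tested.

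The third question was how reads divided between the arms of each hairpin. As a share of reads within a library, this does not depend on scaling. The log2 ratios below add 1 to each level, so they depend on scaling and on the value added. At E10.5 the 3p arm of miR-132 held 13 of 17 and 2 of 2 reads in the GFP-negative libraries, and 10 of 15 and 4 of 9 in the motoneuron libraries. Pooled, its share was 78.9% in GFP-negative cells (exact interval 54.4 to 93.9) and 58.3% in motoneurons (36.6 to 77.9). These intervals overlap. With every hairpin that had reads on both arms entered, the log2 ratio of 3p over 5p was lower by 1.58 in motoneurons (SE 0.61, limma adjusted p = 0.481 over 399 hairpins). No hairpin passed in that fit, and 39 had an unadjusted p under 0.05.

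At E12.5 the 3p share of miR-132 was 39.3% in motoneurons (44 of 112 reads, exact interval 30.2 to 49.0), 22.8% in V3 (13 of 57, interval 12.7 to 35.8) and 4.26% in V2a (2 of 47, interval 0.52 to 14.5). The 5p strand was the more abundant arm in all 3 libraries. The ratio of 3p to 5p reads was 14.4 times higher in motoneurons than in V2a (exact interval 3.45 to 129) and 2.18 times higher than in V3 (interval 1.01 to 4.93). On the log2 TPM + 1 scale, which shrinks low values such as 0.47 TPM in V2a, the change of miR-132 between motoneurons and V2a was 2.31. Shifts of that size on this scale were not rare. It ranked 24th by size among 205 hairpins with both arms counted and no shared rows. The 14.4-fold ratio of reads was not ranked. The median change was 0.92.

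In miR-212 the 5p arm held most reads in every library, but on only 3 to 9 reads a library at E10.5. In GFP-negative library 1 this was 2 reads against 1. Pooled at E10.5, the 3p arm of miR-212 held 2 of 14 reads in motoneurons and 2 of 12 in GFP-negative cells. At E12.5 it held 1 of 175 reads in motoneurons, a share of 0.57% (interval 0.01 to 3.14). In V2a it held 0 of 97 reads, with an exact interval that reaches 3.73%, and in V3 0 of 8, with an interval that reaches 36.9%. The floor of 3 reads is a share of 3.09% in V2a and 37.5% in V3. The E10.5 log2 ratio of 3p over 5p differed by -0.45 between the groups (SE 0.81, limma adjusted p = 0.802). The sign rested on single libraries: the difference was 0.47 without GFP-negative replicate 1 and -1.36 without GFP-negative replicate 2.

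**Figure D4:**
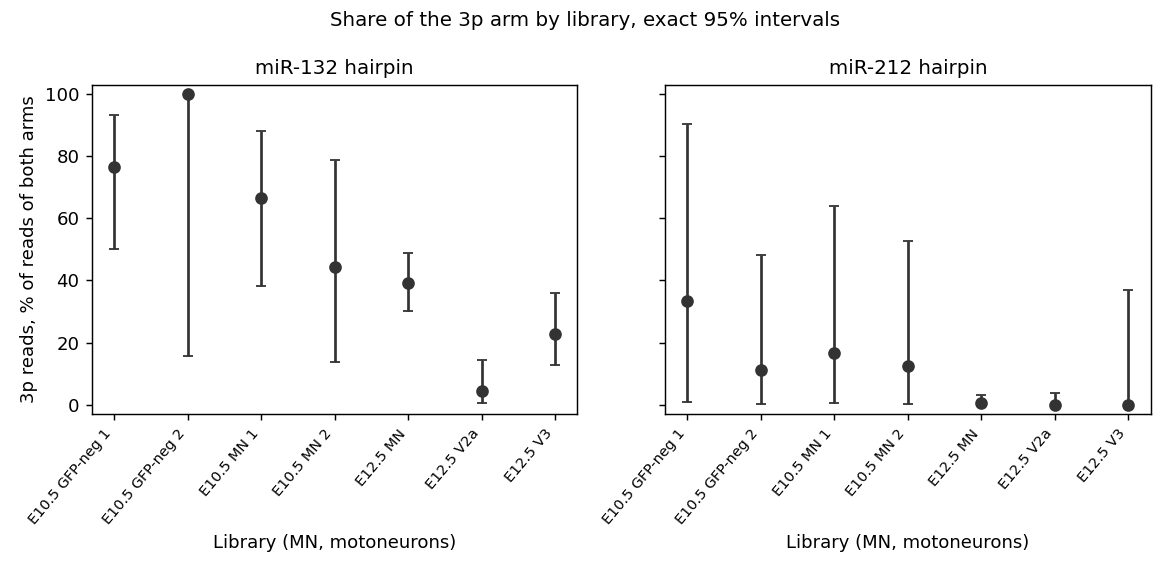
Reads of the 3p arm as a percentage of reads of both arms, for the miR-132 hairpin (left) and the miR-212 hairpin (right), 1 point a library with exact 95% intervals. For miR-132 the share is 39.3% in E12.5 motoneurons and 4.26% in V2a, and for miR-212 it is 0.57% in E12.5 motoneurons and 0% in V2a and V3. Few reads stand behind the miR-212 points at E10.5 and in V3, where the intervals are wide.

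The hairpins were also compared with each other through their 5p strands. miR-212-5p had 2.56 reads for each read of miR-132-5p in E12.5 motoneurons, 2.16 in V2a and 0.18 in V3. Motoneurons and V2a did not differ beyond counting error, with a ratio of ratios of 1.19 (exact interval 0.73 to 1.91). V2a exceeded V3 by 11.7 times (interval 4.93 to 31.2) and motoneurons exceeded V3 by 13.9 times (interval 6.09 to 36.1). In the 1 V3 library, with 8.18 read equivalents of miR-212-5p, the balance of the cluster was thus the reverse. miR-212-5p made up 60.6% of the cluster's reads in motoneurons, 67.4% in V2a and 12.3% in V3, where miR-132-5p held 67.7%. Among 69 same-arm pairs of strands from hairpins within 1000 bp of each other on 1 strand, the shift of this pair between V2a and V3 (2.98 on the log2 TPM + 1 scale) was the largest, and that between motoneurons and V3 (3.26) ranked 4th. The medians over the pairs were 0.96 and 1.11. At E10.5 the reads of miR-212-5p and miR-132-5p were 2 and 4 or 8 and 0 in the GFP-negative libraries and 5 and 5 or 7 and 5 in the motoneuron libraries. The GFP-negative replicates thus differed in which strand had more reads, a spread that the intervals do not hold.

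Other miRNAs described as regulated by neuronal activity or acting at synapses were read from a list of 22. Of its 19 members tested at E10.5, 4 rose and 6 fell in motoneurons (limma adjusted p under 0.05), where 11.6% of all 492 tested miRNAs rose and 30.7% fell. The calls over all miRNAs were 57 higher and 151 lower as deposited, and 105 and 116 when totals were taken without the 5 most abundant miRNAs, which moved the median of all miRNAs from -0.34 to 0.03. As deposited, the median over the list was -0.15, against -0.34 for all miRNAs. The members with the largest changes were miR-124-3p, a pan-neuronal miRNA, at 2.12 (SE 0.29, limma adjusted p = 0.00181), miR-329-3p at -1.52 (SE 0.25, limma adjusted p = 0.00363) and miR-146a-5p at -1.52 (SE 0.40, limma adjusted p = 0.0223). miR-329-3p comes from the Dlk1-Dio3 imprinted cluster, and miR-146a-5p, known from inflammatory signalling, shares reads with another row. miR-124-3p stood at 445 and 306 RPM in motoneurons and at 95.2 and 74.3 in GFP-negative cells, without overlap.

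At E12.5, 20 members of that list were considered. The log2 ratios ran from -2.13 to 1.73 for motoneurons over V2a, from -1.69 to 2.20 over V3 and from -1.12 to 1.38 for V2a over V3. One lay past 4-fold in each of the first 2 comparisons: miR-188-5p was lower in motoneurons than in V2a, as were 7.99% of all miRNAs considered, and miR-329-3p was higher in motoneurons than in V3, as were 8.68% of all miRNAs considered. At 1 of 20, neither count exceeded the share over all miRNAs. miR-188-5p was named after its value was seen.

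The rows whose pattern over the 7 libraries was most like that of miR-132-3p were sought among 449 miRNAs that reached the minimum level at both stages. The measure was the root mean square difference of log2(value + 1), centred within each table. miR-129-5p, a neuronal miRNA, was closest at 0.52, against a median of 1.18 over the rows. It stood at 575 TPM in E12.5 motoneurons, 147 in V3 and 76.9 in V2a, the same order as miR-132-3p, and at 29.1 to 43.6 RPM in the 4 E10.5 libraries. It shares reads with another row. miR-30b-3p (0.67), miR-709 (0.67), miR-7224-3p (0.67) and miR-669o-3p (0.68) followed, of which miR-669o-3p lies in a group of 12 rows that share reads. None of these 5 passed at E10.5 (limma adjusted p from 0.258 to 0.85). They were picked on these same values, and miR-132-3p differed little between the E10.5 groups. That none passed and that miR-129-5p had the same E12.5 order thus largely follow from the choice. miR-132-3p itself did not reach the minimum level at E10.5.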

How the data were processed

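Small RNA libraries were sequenced from sorted spinal cells, and the titles of the samples gave groups and replicate numbers. Per the submitters' processing notes the tool was Bowtie2. Its version, the counting program, build and annotation are not known from these sources. Early libraries, as deposited by the authors, are in RPM, and each sums to 1000000. Low RPM values of rows that share no reads were whole multiples of 1 read (97.3% to 100.0% within 0.05), which gave the depths. All 4 strands are such rows. The E12.5 table names no unit and was read as FPKM as the authors deposited it, because its low values stepped by amounts inverse to mature length. With RefSeq lengths (1603 of 1908 names matched), 75.0% to 81.5% of low values were whole reads. FPKM was rescaled to TPM. The count test, planned only for raw counts, was not used, because over all rows, those that share reads included, too few low values came out whole (89.3% to 92.5% at E10.5).

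Motoneurons and GFP-negative cells were tested with limma 3.58.1 (R 4.3.3, two-sided, mean-variance trend for levels, none for arm ratios) on log2(RPM + 1). Rows reached 15.2 RPM in at least 2 libraries, and p-values were Benjamini-Hochberg adjusted over all rows (threshold 0.05). For hairpins below that level the plan gave arm ratios with no test, so the arm p-values here come from an alternative fit. E12.5 ratios carry exact 95% conditional intervals from reads rounded to whole numbers. Poisson and Clopper-Pearson intervals were used for levels and shares. By rule, the rows named besides the 4 strands were the 5 most like miR-132-3p, the 3 largest E10.5 changes of the activity list, and miR-218-5p and miR-124-3p. Outside that rule, miR-188-5p and miR-9-5p were named after their values were seen. miR-451a, miR-144-3p and miR-223-3p are named as members of the blood marker list. Members, lists and tests were chosen with earlier results of these data known.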

Additional observations from a re-analysis of the deposited data

How the results depend on the processing

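With other scalings and pseudocounts, no E10.5 difference of the 4 strands moved by more than its spread between replicates, which with 2 libraries a group and 0 to 13 reads is wide. The difference for miR-212-3p, 0.03, was -0.055 with totals taken without the mesenchymal and muscle lists. With 2 libraries a group, leaving out 1 cannot move a difference past that spread by construction, so it is no check of stability. The leave-one-out differences ran from -0.68 to 1.23 for miR-132-3p, 0.55 to 3.17 for miR-132-5p, -0.19 to 0.24 for miR-212-3p and -0.60 to 1.55 for miR-212-5p. With the replicate number as a block, in the fit of all rows above 0, the values were the same, 0.28, 1.86, 0.03 and 0.48, and none passed (limma adjusted p from 0.182 to 0.997). Same-numbered libraries had a correlation of deviations of 0.26 over 2 pairs, which does not show pairing. The block gave 67 higher and 162 lower over all miRNAs, against 57 and 151. The higher count was 34 with only rows at 0 removed and 29 and 27 without motoneuron replicate 1 and 2, fits that test other rows. The miR-132 arm difference was -0.48 with a pseudocount of 10 and -2.02 with a pseudocount of 0.5, against -1.58.

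At E12.5, a pseudocount of 10 shrank the log2 ratios of low strands by construction: for miR-132-3p to 1.10 (motoneurons over V2a), 0.77 (over V3) and -0.33 (V2a over V3), and for miR-212-5p to 2.26 (motoneurons over V3) and 1.37 (V2a over V3). Totals without the 5 most abundant miRNAs gave motoneurons over V2a as 2.68 for miR-132-3p, 0.27 for miR-132-5p and 0.52 for miR-212-5p, and motoneurons over V3 as 0.98, 0.017 and 3.34. miR-212-5p stayed past 4-fold over V3 in motoneurons in 5 of 5 settings, and in V2a in 4 of 5, as did miR-132-3p in motoneurons over V2a. The count-based tests, which the plan held for raw counts, were not run.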
